A study of Arabidopsis thaliana with 12 samples.

Results

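PSB27, PSBW, PSBY and PSAN are 4 nuclear genes for small proteins of the thylakoid photosystems, 3 of them of photosystem II and PSAN of photosystem I. Probes were taken where the platform annotation named the locus of one of these genes and no other gene: AT1G03600 for PSB27, AT2G30570 for PSBW, AT1G67740 for PSBY and AT5G64040 for PSAN. Each of the 4 had 1 such probe, so the set is 4 of the 691 genes that had a probe annotated to them alone. Transcripts were measured by array in total RNA of Arabidopsis thaliana, wild type of ecotype C24. The 12 samples form 2 groups of 6: untreated plants grown in light specific to photosystem II, and plants grown in that light and treated with DCMU. Ecotype, genotype and light are shared by both groups; the sources used here give no dose or duration of DCMU, plant age or tissue.

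Photosystem II splits water in the thylakoid lumen and passes electrons to the plastoquinone pool, from which they travel through the cytochrome b6f complex and plastocyanin to photosystem I. Light that mainly drives photosystem II favours a reduced plastoquinone pool. DCMU (diuron) occupies the site where photosystem II hands its electrons to plastoquinone and so stops the pool from being reduced; the redox state of this pool is a known signal for photosynthesis gene expression in plants. Around the large chlorophyll-binding core proteins, both photosystems carry small subunits, many of them encoded in the nucleus, and photosystem II also relies on auxiliary proteins that join only during assembly and repair.

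The values are spot intensities in units scaled by the authors; array totals ran from 3643 to 3768 and array medians from 0.596 to 0.687. Samples numbered 1 and 2, 3 and 4, and 5 and 6 deviated together within each group, so each such pair of numbers was averaged on the log2 scale to give 3 replicates per group. Nothing in the labels says that replicates were separate cultures of plants, so p-values cover the spread between these samples alone, which may be technical. Intensity depends on the probe as well as on the transcript, so levels are compared between groups and never between genes. An array of total RNA cannot tell fewer cells of a type from less transcript per cell. None of the 3 root plastid isoforms listed as markers of another tissue had a probe of its own, so the tissue was not checked.

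PSB27 was the member of the set that fell with DCMU; PSBW, PSBY and PSAN did not pass the test. Passing 1 of 4 is to be read against a background of 5.09% of all 3278 features at the same threshold (limma, adjusted p under 0.05) and 3.17% in the lower direction. With the replicate number as a block PSB27 was again the 1 member that passed (limma, adjusted p = 2.51e-05), where 17.3% of features passed. PSB27 was 1.83-fold to 1.96-fold lower in each replicate pair. PSBY was 1.11-fold to 1.46-fold lower and PSBW 1.05-fold to 1.25-fold higher by pair, and PSAN lay close to the median of all features. The change of PSB27 differed from those of PSBW and PSAN by about 1 log2 unit, as tested further down.

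PSB27 is a lumenal protein that binds photosystem II intermediates during assembly and repair and is absent from the finished, oxygen-evolving complex. Its intensity in untreated plants was 2.74, 2.77, 2.57, 3.20, 3.29 and 3.63 for numbers 1 to 6. With DCMU it was 1.29, 1.54, 1.40, 1.72, 1.87 and 1.92 for the same numbers. The 6 treated arrays all lay below the 6 untreated ones, with the highest treated array at 1.92 and the lowest untreated array at 2.57. Such separation in the lower direction was seen in 5.61% of features.

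Averaged to replicates, PSB27 fell 1.88-fold, from 3.03 ± 0.378 to 1.62 ± 0.250 (SD, n = 3). The log2 change was -0.91, with a 95% interval from -1.22 to -0.60 (limma, adjusted p = 0.00410). By number pair the log2 change was -0.97 for numbers 1-2, -0.89 for 3-4 and -0.87 for 5-6. These 3 changes have an SD of 0.0536, although the level itself was highest at numbers 5-6 in both groups, so the fall was of like size at each level. Of the 3278 features, 42 (1.28%) had a change as low or lower. The call was lost with a higher floor on low values (adjusted p = 0.0529) and with no filter on dim features (adjusted p = 0.0563), where the log2 change of PSB27 was still -0.91.

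**Figure D1:**
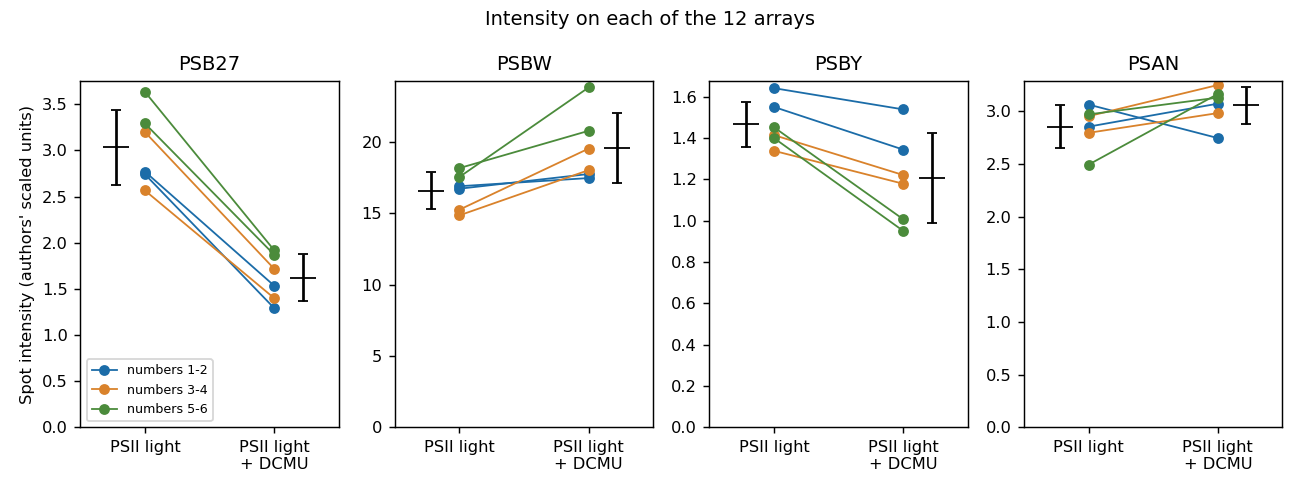
Spot intensity (authors' scaled units, axes from 0) of each gene on the 12 arrays, with lines joining the same sample number in both groups, colours for the number pairs, and black bars for the mean and SD of the 6 arrays. The lines of PSB27 all drop and its groups are apart; the groups of PSBW, PSBY and PSAN overlap.

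LPA19 (AT1G05385) is a paralogue of PSB27 in Arabidopsis that takes part in the maturation of the photosystem II reaction centre protein D1. It was measured by its own probe and serves as a comparison within the family. Its level was 0.942 ± 0.0748 without DCMU and 0.963 ± 0.108 with it (SD, n = 3). The log2 change was 0.03, with a 95% interval from -0.24 to 0.30 (limma, adjusted p = 0.891). LPA19 was lower with DCMU at 3 of the 6 numbers and higher at the other 3. The log2 ratio of PSB27 to LPA19 went from 1.68 ± 0.177 to 0.74 ± 0.164 (SD, n = 3), a difference of -0.94 with a 95% interval from -1.22 to -0.65. That comparison was chosen after the values were seen. The exact permutation test gave p = 0.1, its smallest value with 3 against 3. Limma on the ratio gave an unadjusted p = 2.48e-05, which may be too small because its spread was estimated on single features. The probe sequences were not used here, so whether each probe reports only its own family member was not checked.

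PSBW is a subunit of the photosystem II core with a single membrane span, known in Arabidopsis for stabilising the supercomplexes that the core forms with its antenna. Its intensity in untreated plants was 16.7, 16.9, 15.3, 14.9, 18.2 and 17.6 for numbers 1 to 6. With DCMU it was 17.8, 17.5, 19.5, 18.0, 20.8 and 23.8. At each of the 6 numbers the treated array was the higher one; 40.4% of all features kept 1 direction, up or down, at all 6 numbers. The groups still overlapped, since 3 treated arrays lay below the highest untreated array of 18.2.

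The replicate means of PSBW were 16.6 ± 1.42 without and 19.5 ± 2.41 with DCMU (SD, n = 3). The log2 change of 0.23 had a 95% interval from -0.04 to 0.51 and did not pass (limma, adjusted p = 0.259). By number pair it was 0.07 for numbers 1-2, 0.32 for 3-4 and 0.32 for 5-6, so the value at numbers 1-2 stood apart from the others and below the median feature of that pair, 0.10. Without the treated replicate of numbers 5-6 the log2 change of PSBW was 0.14 (limma, adjusted p = 0.531). Quantile normalization moved it to 0.38 (limma, adjusted p = 0.0549), and with the replicate block as well it passed (adjusted p = 0.0193). Median centring moved it the other way, to 0.16 (limma, adjusted p = 0.505), and it did not pass with the block either (adjusted p = 0.285). With the block and no rescaling it did not pass (limma, adjusted p = 0.115). The 95% interval of that fit, which is not adjusted over all features, ran from 0.02 to 0.45 and left out 0.

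PSBY is another small subunit of the photosystem II core; in Arabidopsis its nuclear gene encodes a precursor that is cut into separate membrane-spanning polypeptides, which lie beside cytochrome b559. Its intensity in untreated plants was 1.55, 1.64, 1.34, 1.41, 1.40 and 1.45 for numbers 1 to 6. With DCMU it was 1.34, 1.54, 1.18, 1.22, 0.951 and 1.01. The treated array was the lower one at all 6 numbers, where 40.4% of all features kept 1 direction, up or down. The treated arrays of numbers 1 and 2 lay within the range of the untreated group, while those of numbers 3 to 6 lay below it.

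PSBY had replicate means of 1.47 ± 0.115 without and 1.21 ± 0.230 with DCMU (SD, n = 3). Its log2 change of -0.30 had a 95% interval from -0.62 to 0.02 and did not pass (limma, adjusted p = 0.231, and adjusted p = 0.0673 with the replicate block). The pairs were uneven: the log2 change was -0.15 for numbers 1-2, -0.20 for 3-4 and -0.54 for 5-6. Both arrays of the last pair showed it, at -0.56 for number 5 and -0.53 for number 6. Without the treated replicate of numbers 5-6 the log2 change of PSBY was -0.16 (limma, adjusted p = 0.505).

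PSAN is a lumenal subunit of photosystem I, on the side where plastocyanin delivers electrons. Its intensity in untreated plants was 3.06, 2.85, 2.95, 2.80, 2.97 and 2.49 for numbers 1 to 6. With DCMU it was 2.75, 3.07, 3.25, 2.98, 3.13 and 3.17. The treated array was higher at 5 numbers and lower at number 1, and the ranges of the groups overlapped.

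The replicate means of PSAN were 2.85 ± 0.119 without and 3.06 ± 0.131 with DCMU (SD, n = 3). The log2 change of 0.10 had a 95% interval from -0.12 to 0.32 (limma, adjusted p = 0.542), against a median of 0.10 over all features. By pair it was -0.03 for numbers 1-2, 0.12 for 3-4 and 0.21 for 5-6. With the arrays centred on their medians, the log2 change of PSAN was 0.02 (limma, adjusted p = 0.913). The interval leaves out a fall as large as that of PSB27, but it does not show that PSAN stayed the same.

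**Figure D2:**
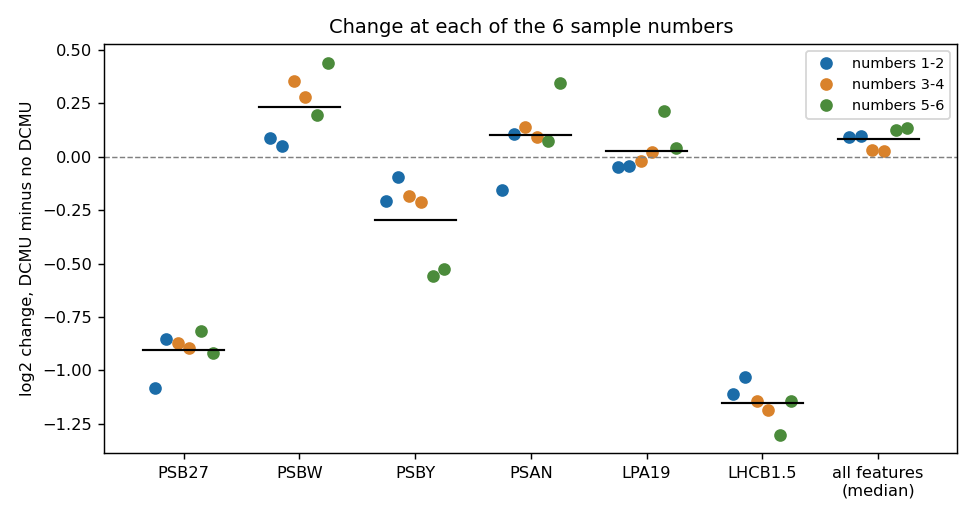
The log2 change (intensity with DCMU over intensity without) at each of the 6 sample numbers, coloured by number pair, with a black line at the mean, for the 4 genes, the other measured photosystem genes LPA19 and LHCB1.5, and the median of all features. PSB27 and LHCB1.5 lie below -0.8 at every number, while the points of PSBY at numbers 5 and 6 lie apart from its others.

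Whether the 4 genes differed from each other in their change was tested on the log2 ratio of each pair of probes within a replicate, over all 6 pairs of genes. The log2 ratio of PSB27 to PSBW went from -2.46 ± 0.132 to -3.60 ± 0.0454 (SD, n = 3), a difference of -1.14 between the changes of the genes. That of PSB27 to PSAN went from 0.08 ± 0.235 to -0.93 ± 0.170 (SD, n = 3), a difference of -1.01. In both cases the treated replicates lay apart from the untreated ones, and so did the single arrays. Such a ratio shows unequal change and does not say which of the genes moved.

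The exact permutation test, two-sided, gave p = 0.1 for both of these pairs and adjusted p = 0.24 over the 6 pairs; with 3 against 3 replicates it cannot go below 0.1. Limma on the ratio, which shares its estimate of spread with all features, gave an adjusted p = 4.84e-06 for PSB27 against PSBW (95% interval from -1.38 to -0.90). It gave an adjusted p = 8.87e-05 for PSB27 against PSAN (95% interval from -1.32 to -0.69). Both pairs passed in limma in all 6 fits that left out 1 replicate, with a highest adjusted p of 8.07e-05 and 0.000935. The ratios are the same before and after median centring, which moves both genes alike.

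The pairs with PSBY were less clear. PSB27 differed from PSBY by -0.61 in log2 change (95% interval from -1.10 to -0.12), and by pair by -0.82 at numbers 1-2, -0.69 at 3-4 and -0.32 at 5-6. PSBW differed from PSBY by 0.53 (0.10 to 0.96), with 0.22, 0.52 and 0.86 at the same numbers. PSBY differed from PSAN by -0.40 (-0.75 to -0.05), with -0.12, -0.31 and -0.75. All 3 gave exact permutation p = 0.2 and adjusted p = 0.24, and in limma on the ratio an adjusted p = 0.0311, 0.0311 and 0.0365. The limma values lie near the threshold of 0.05, where a spread estimated on single features could decide the call.

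These 3 limma calls were lost in most fits that left out 1 replicate. PSB27 against PSBY passed in 2 of 6, without untreated numbers 1-2 and without treated numbers 5-6, and stood at -0.38 (limma, adjusted p = 0.113) without treated numbers 1-2. PSBW against PSBY passed in 2 of 6, without untreated numbers 5-6 and without treated numbers 1-2, and stood at 0.29 (adjusted p = 0.120) without treated numbers 5-6. PSBY against PSAN passed in 1 of 6, without treated numbers 1-2, and stood at -0.23 (adjusted p = 0.166) without treated numbers 5-6. With the replicate block on the ratio, all 3 passed in limma (adjusted p = 0.000176, 0.000883 and 0.00633).

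PSBW and PSAN, subunits of different photosystems, had the closest changes of the 6 pairs. They differed by 0.13, with a 95% interval from -0.14 to 0.41 (exact permutation p = 0.4, adjusted p = 0.4; limma on the ratio, adjusted p = 0.296). The differences by number pair were 0.09, 0.20 and 0.11. The interval reaches 0.41, so equal change is not shown. The difference was 0.06 to 0.22 when 1 replicate was left out, lowest without treated numbers 5-6, and 0.26 after quantile normalization.

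**Figure D3:**
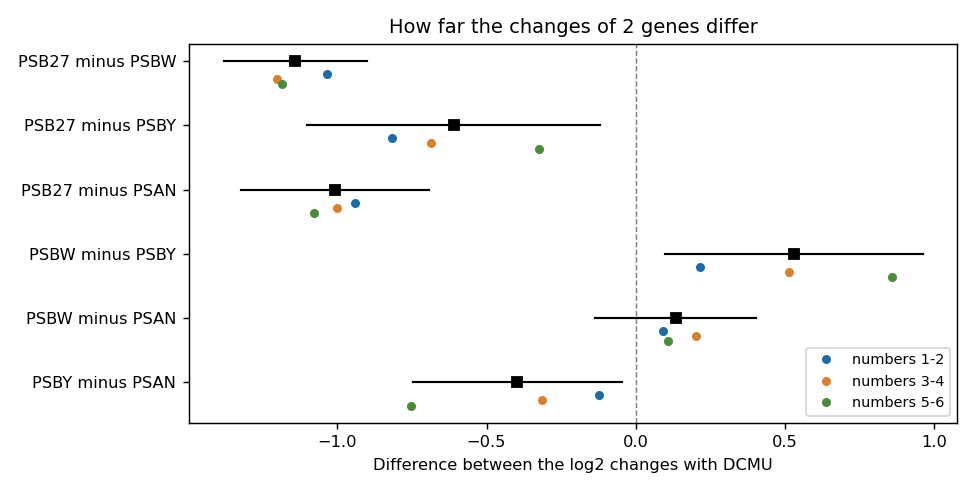
Difference between the log2 changes of each pair of genes (squares, first gene minus second), with limma's 95% interval as a line and the value in each number pair as coloured points below it. The intervals of PSB27 against PSBW and PSAN are far from 0, those with PSBY come close to it, and that of PSBW against PSAN holds it. They use a spread estimated on single features and may be too narrow.

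Across the fixed lists of photosystem and electron transport genes, 6 of 79 loci had a probe of their own, root markers included. These were the 4 genes above, LPA19 and LHCB1.5. Of the 34 listed genes of the photosystem II core, its assembly and repair, 4 were measured, of which 1 fell and 0 rose; their median log2 change was -0.13, against 0.10 over all features. The gene that fell is PSB27 itself, and 3.17% of all features were called lower. The 4 measured genes are PSB27, PSBW, PSBY and LPA19, all described above, so their median does not describe the whole list. The antenna list of photosystem II had 1 measured gene of 14, LHCB1.5 (AT2G34420), a chlorophyll-binding protein of the main light-harvesting complex. The core of photosystem I had 1 of 12, PSAN, and no gene of the photosystem I antenna or of the electron carriers and ATP synthase was measured.

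LHCB1.5 is the other listed gene that fell with DCMU. Its arrays ran from 18.7 to 25.4 without DCMU, with a median of 22.7, and from 8.23 to 11.05 with it, with a median of 10.5, so the groups did not overlap. Of all features, 5.61% were separated in this way in the lower direction. The log2 change was -1.15, with a 95% interval from -1.45 to -0.85 (limma, adjusted p = 0.000912). In untreated plants both LHCB1.5 and PSB27 were highest at numbers 5-6, at 24.9 and 3.46. PSBW, which did not fall, was also highest there, at 17.9. With DCMU, LHCB1.5 was at 10.8, 8.58 and 10.7 by pair where PSB27 was at 1.41, 1.55 and 1.90. Near-identical copies of LHCB1.5 may add to its probe.

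**Figure D4:**
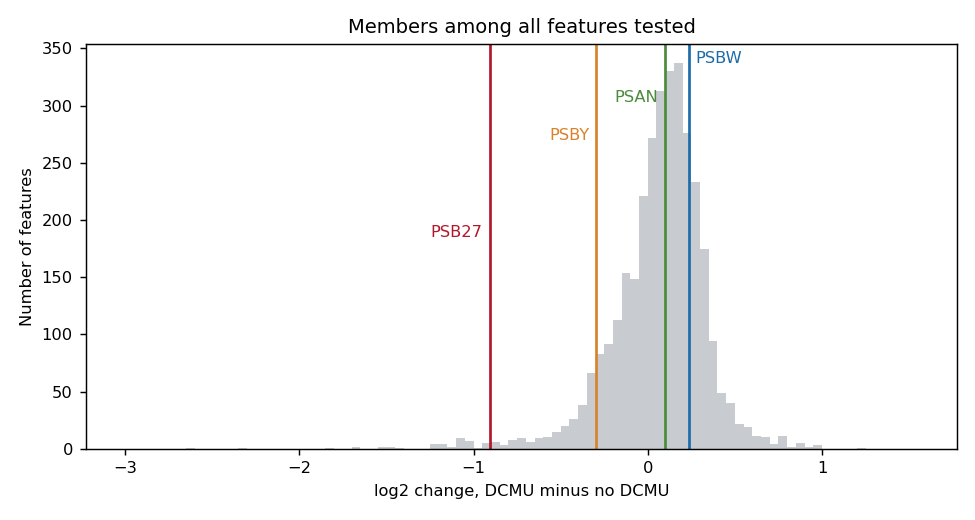
Histogram of the log2 change with DCMU over the 3278 features tested, with the 4 genes as vertical lines. PSB27, at -0.91, lies in the lower tail with 1.28% of features at or below it, PSBY at -0.30 has 8.08% at or below it, and PSAN at 0.10 and PSBW at 0.23 lie in the body of the distribution.

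The place of the other 3 genes in that distribution was less extreme. A change as low as that of PSBY or lower was found in 265 features (8.08%), and one as high as that of PSBW or higher in 766 (23.4%). PSAN lay in the middle, with 1654 features (50.5%) at or below it.

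For each gene, the 2 named features whose log2 level followed it most closely over the 12 arrays were taken by a fixed rule, as a description. The arrays share their group and number pair, so a high correlation can reflect either. For PSB27 these were AT4G21770, of the pseudouridine synthase family (Pearson r = 0.93, log2 change -0.57), and AT1G73470 (r = 0.92, log2 change -0.44). AT4G21770 went from 1.03 ± 0.130 to 0.693 ± 0.0713 (SD, n = 3). These features were picked on the same 12 arrays with the group difference left in, so no test is read from them.

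The features most like the other 3 genes were taken in the same way. For PSBW they were AT1G13990 (r = 0.91, log2 change 0.22) and AT3G06870 (r = 0.89, log2 change 0.29). For PSBY they were AT5G19940 (r = 0.92, log2 change -0.12) and AT5G52530 (r = 0.89, log2 change -0.19). For PSAN they were AT3G11150 (r = 0.87, log2 change 0.21) and AT5G24690 (r = 0.77, log2 change 0.33), the lowest likeness of the 4 genes. No test is read from these 6 features either, since they were picked on the same arrays.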

How the data were processed

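For each of 3439 probes the deposited table gives an intensity in each sample, linear, from 0 to a ceiling of 100. Array totals differ by a factor of at most 1.03, so the authors appear to have scaled the intensity values; how they did so, and how they labelled and corrected the arrays, is not given in the sources used here. No background or detection values were used. The number of arrays limits the precision.

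Before log2, a floor was set at 0.0669, the 1st percentile of positive values, 160 probes at or under it on all arrays were left out, and spots of 1 gene were averaged, leaving 3278 features, 651 with a gene name. Names came from the platform annotation (692 probes with 1 gene, 870 with several, 1877 with none), updated through the RefSeq TAIR10.1 gene table, which held 690 of the 692. No probe name was checked by sequence.

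Within a group, deviations from its mean had correlations of 0.36 to 0.67 within numbers 1-2, 3-4 and 5-6 and at -0.58 to -0.11 otherwise; across groups, same-numbered replicates correlated at 0.38 to 0.44 and others at -0.38 to 0.01, so numbers pair the replicates here. The comparison used limma 3.58.1 (R 4.3.3; lmFit, eBayes, two-sided, Benjamini-Hochberg over all features, threshold 0.05) without the block; the block was an alternative. On simulated data for this comparison (3278 features) the fit recovered 92 of 100 features changed by 1 log2 unit and 46 of 100 changed by 0.5, with 3 false calls. Pairs of genes were compared with the exact permutation test, adjusted over the 6 pairs, and with limma as an alternative. In that limma fit the ratios were added to all features, so their shared spread was estimated on single features. Named were the 4 members, the other list genes with their own probe, and the 2 named features most like each member. The members and lists were chosen with earlier results of these data known.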

Additional observations from a re-analysis of the deposited data

How the results depend on the processing

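PSB27 kept its direction in all 19 alternatives and its call in 16 of them. The higher floor, the filters, the block alone, the 12 separate samples and the exact permutation test left its estimate at -0.91. Direction could not turn in those fits. With 1 replicate left out the log2 change was -1.03 to -0.81 (limma, adjusted p at most 0.0292). PSB27 lost its call at -0.91 with the floor at the 10th percentile (limma, adjusted p = 0.0529) and with no filter (adjusted p = 0.0563). The call was also lost in the exact permutation test per feature (adjusted p = 0.327), whose smallest p of 0.1 cannot pass. In the first pair of these the prior degrees of freedom behind limma's shared spread were 0.800 and 0.872, against 6.24. With all 12 samples as separate replicates PSBW (0.23, adjusted p = 0.0434) and PSBY (-0.30, adjusted p = 0.0415) passed; that fit counts paired numbers singly. PSBW also passed at 0.38 with the replicate block and quantile normalization. With the block and median centring it stood at 0.16 and did not pass (limma, adjusted p = 0.285). PSAN did not pass in any of 19 alternatives, and no sign turned. The replicate block changed no other call of the 4 genes. PSBY lay at the edge of the threshold with the block and median centring (-0.37, limma, adjusted p = 0.0501). PSB27 against PSBW (-1.14), PSAN (-1.01) and PSBY (-0.61), PSBW against PSBY (0.53) and PSBY against PSAN (-0.40) passed in limma on the ratio, with the replicate block on it, and in the exact permutation test over 12 samples (adjusted p = 0.00649 to 0.0260). The test over 12 samples also counts paired numbers singly. With 3 against 3 replicates the exact permutation test gave each of these pairs an adjusted p = 0.24. Leaving out 1 replicate gave -1.22 to -1.10, -1.10 to -0.87, -0.87 to -0.38, 0.29 to 0.74 and -0.57 to -0.23. PSBW against PSAN did not pass in any setting tried.

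The 167 called features (104 lower, 63 higher) became 566 with the replicate block (215 lower, 351 higher), 502 with it after median centring (327 lower, 175 higher), 465 with it after quantile normalization (280 lower, 185 higher), 359 with array weights, 110 with the higher floor, 102 with no filter, 1089 with 12 replicates and 0 in the exact permutation test, with 804 at an unadjusted p under 0.05 in limma. Leaving out 1 replicate gave 77 to 282. The limma fits of the ratios without 1 replicate were chosen after seeing the data. Causes other than those stated were not tested.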

Other observations

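With the group means removed, the levels of the 4 genes still varied together or apart over the 12 arrays, which share number pairs. PSB27 and PSBW varied in the same direction (Pearson r = 0.59), and PSBY varied against both (r = -0.53 with PSB27 and -0.58 with PSBW). The opposition of PSBW and PSBY was seen in the 6 treated arrays (r = -0.84), where numbers 5-6 held the highest PSBW (22.3) and the lowest PSBY (0.978) of the replicates, and not in the 6 untreated ones (r = 0.32). The relations of PSAN were between -0.25 and 0.24 over the 12 arrays but differed by group: with PSB27 it had r = -0.73 in the untreated and 0.48 in the treated arrays, and with PSBW r = -0.14 and 0.56. These are descriptions of 12 arrays, with no test.

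The spread over the 6 arrays of PSBY was wider with DCMU (coefficient of variation 18.0%) than without (7.57%). For PSBW it was 12.4% with and 7.77% without, for PSB27 15.7% with and 13.4% without, and for PSAN 5.79% with and 7.01% without. Whether these spreads differ was not tested.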
